A study of Mus musculus with 2 samples.

Results

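The genes described here are 10 costimulatory and checkpoint ligands, the surface or secreted molecules through which an antigen-presenting cell raises or restrains the activity of a T cell. They were taken by symbol from both count matrices: Cd80, Cd86, Cd40, Cd274, Pdcd1lg2, Icosl, Tnfsf4, Tnfsf9, Pvr and Lgals9, which are 10 of the 32285 genes listed. The study sequenced single immune cells of mouse colon lamina propria, the tissue beneath the gut epithelium, and the labels describe them as CD11b+. There were 2 libraries, 1 per group, titled Runx3_fl and Runx3. The study compared RUNX3 fl/fl-Lyz2-Cre mice, in which Cre under the Lyz2 promoter deletes the transcription factor RUNX3 in myeloid cells, with RUNX3 fl/fl littermates, so that floxed alleles are shared by both groups, and it describes each library as a pool of male mice. Neither title says whether Cre was present, and the labels give no strain, age or treatment. Directions below are therefore between the library labelled Runx3 and the library labelled Runx3_fl, and not between genotypes. With 1 library per group no test across animals could be made, and differences have no replicate check.

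T cells need a signal through the antigen receptor and a further signal from the presenting cell. CD80 and CD86 give it through CD28 and are taken up by the inhibitory receptor CTLA-4, while ICOSL binds ICOS. PD-L1, encoded by Cd274, and PD-L2, encoded by Pdcd1lg2, bind the inhibitory receptor PD-1. OX40L (Tnfsf4) and 4-1BBL (Tnfsf9) are ligands of the tumour necrosis factor family, and CD40 is the receptor by which presenting cells take up help from CD40L on T cells. PVR is bound by TIGIT, CD96 and CD226, and galectin-9, the product of Lgals9, by TIM-3. In the gut, dendritic cells that have taken up antigen mature, turn on Ccr7 and Fscn1, and leave for the draining lymph node.

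Cells were kept with 200 to 6000 genes and at most 15% mitochondrial UMIs (molecular tags that count each captured RNA once), which left 11885 of 12968 cells labelled Runx3_fl and 8167 of 8953 labelled Runx3, at medians of 9573 and 5731 UMIs. Each of 6 classes was a gate on marker UMIs: Xcr1 for type 1 conventional dendritic cells (cDC1, 402 and 51 cells, in the order Runx3_fl and Runx3 here and below), Cd209a for type 2 (cDC2, 248 and 252), Fscn1 with Ccr7 for migratory dendritic cells (173 and 67), Csf1r with C1qa for macrophages (309 and 299), Csf3r for neutrophils (1517 and 1550) and Cd79a for B cells (554 and 1465). The 634 and 1234 cells that passed several gates were left out of all of them. This loss was uneven: 719 and 1083 cells passed the macrophage gate in all, and 590 and 158 the cDC1 gate. The macrophage class thus holds a minority of the cells that passed its gate in each library. T cells (a Cd3e UMI) and NK cells (Ncr1 without Cd3e) in none of the gates served for comparison. Levels are UMIs of a gene per 1000000 UMIs of the class (CPM), with 95% Poisson intervals that cover counting error only. As 3' tags, they are compared within a gene, across classes and libraries. As a check of the labels, Runx3 itself was at 186 CPM in the macrophage class labelled Runx3_fl and at 256 in that labelled Runx3, and over the 6 classes it lay between 120 and 207 CPM in the former and between 97.4 and 256 in the latter. It was not lower in the library labelled Runx3 in any of the 5 myeloid classes, so that its tags did not separate the labels there. Cells in none of the gates that were neither T nor NK cells had 464 and 233 CPM. Whether a deletion within the gene would lower its tags was not tested. The study itself measured RUNX3 in colon resident macrophages by qRT-PCR and Western blot.

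The gate names were compared with other markers. Clec9a and Naaa were highest in the cDC1 class, Clec10a in the cDC2 class, and Cacnb3, Ccl22 and Il4i1 in the migratory class, in both libraries. Other genes of these marker lists were not: Sirpa, at 120 and 142 CPM in the cDC2 class, was higher in macrophages, at 249.7 and 345 CPM, and Irf8 in the library labelled Runx3_fl was at 695 CPM in the cDC1 class and 994 in the migratory class. In that library Ccl17, of the migratory list, was at 32.8 CPM in the migratory class and 46.6 in the cDC2 class. Irf4, of the cDC2 list, was at 70.5 CPM in the cDC2 class and 135 in the B cell class there. The 5 listed cDC2 genes summed to 369 and 386 CPM in the cDC2 class and to 292 and 410.1 CPM in macrophages. The Csf3r gate carried the neutrophil genes Cxcr2, Mmp9 and S100a8, with S100a8 at 1408 and 18305 CPM, but 49.2% and 50.8% of its cells also had a UMI of the macrophage gene Csf1r. The Cd79a gate labelled Runx3_fl was rich in plasma cell genes, with Mzb1 at 1456 against 297 CPM, while Ebf1, a B cell transcription factor, was at 736 against 4871 CPM. These classes are called the Csf3r gate and the Cd79a gate below. The migratory class labelled Runx3 carried fibroblast RNA, with 3 fibroblast markers summing to 699 CPM against 84.1 in that labelled Runx3_fl. T cell RNA went the other way: 4 T cell markers summed to 264 and 69.2 CPM in the macrophage class and to 233 and 62.6 CPM in the Csf3r gate. So did 4 NK cell markers, at 443 and 50.4 CPM in macrophages and 486 and 8.28 in the migratory class. Neutrophil RNA was higher under the label Runx3, with 5 markers summing to 12.9 and 264 CPM in the cDC1 class, 4.89 and 193 in the cDC2 class, 4.62 and 197 in the migratory class and 21.2 and 341 in macrophages. The 5 B cell markers summed to 5.47 and 140.0 CPM in macrophages. Cells in none of the gates that were neither T nor NK cells by the rule above differed in make-up as well. NK cell markers summed there to 2416 and 237 CPM, neutrophil markers to 165 and 2899 and macrophage markers to 338 and 1096. Their median depths were 6603 and 2137 UMIs. In the cells labelled CD11b+ there were also 2909 and 395 T cells, and Itgam, which encodes CD11b, was at 86.2 and 157 CPM over all kept cells. Xist, expressed from the inactive X chromosome of female cells, was at 212 CPM over all kept cells labelled Runx3_fl and at 0.183 CPM (12 UMIs) in those labelled Runx3, although the study describes male pools. The libraries shared 27 cell barcodes among kept cells. The part of any of these differences in the levels below was not tested beyond the leave-out values given with them.

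Promoter windows are shown first for the genes that were past 2-fold between the libraries in at least 2 classes and had an entry in the RefSeq table, which holds 5 of the 10 genes (build GRCm38.p6, 250 bases before to 50 after the start). Short motifs were searched on both strands: the core of the interferon-stimulated response element (GAAANNGAA, in 8.56% of the 32851 windows in the table) and the kappaB consensus (in 8.46%). The response element core was present in the windows of Cd274 and Lgals9 and a kappaB match in those of Pdcd1lg2 and Icosl. Capitals mark the matches.
Cd274, chr19:29367188-29367487, plus strand: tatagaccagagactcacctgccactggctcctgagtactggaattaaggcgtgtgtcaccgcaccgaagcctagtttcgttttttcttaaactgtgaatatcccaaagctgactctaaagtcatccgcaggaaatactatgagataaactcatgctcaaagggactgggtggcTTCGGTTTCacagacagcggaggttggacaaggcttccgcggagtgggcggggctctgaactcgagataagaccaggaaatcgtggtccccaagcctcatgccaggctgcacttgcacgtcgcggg
Pdcd1lg2, chr19:29410669-29410968, plus strand: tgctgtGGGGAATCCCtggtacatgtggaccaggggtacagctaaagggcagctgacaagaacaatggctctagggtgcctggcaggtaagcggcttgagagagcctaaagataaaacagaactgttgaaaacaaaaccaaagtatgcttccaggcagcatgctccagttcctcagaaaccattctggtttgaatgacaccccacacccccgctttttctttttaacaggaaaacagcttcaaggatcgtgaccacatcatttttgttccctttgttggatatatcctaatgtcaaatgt
Icosl, chr10:78069118-78069417, plus strand: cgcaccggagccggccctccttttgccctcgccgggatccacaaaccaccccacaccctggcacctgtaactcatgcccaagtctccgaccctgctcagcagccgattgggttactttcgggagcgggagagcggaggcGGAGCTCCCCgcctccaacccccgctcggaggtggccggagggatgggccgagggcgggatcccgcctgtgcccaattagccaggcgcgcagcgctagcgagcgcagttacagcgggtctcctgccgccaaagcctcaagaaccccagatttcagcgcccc
Lgals9, chr11:78984875-78985174, minus strand: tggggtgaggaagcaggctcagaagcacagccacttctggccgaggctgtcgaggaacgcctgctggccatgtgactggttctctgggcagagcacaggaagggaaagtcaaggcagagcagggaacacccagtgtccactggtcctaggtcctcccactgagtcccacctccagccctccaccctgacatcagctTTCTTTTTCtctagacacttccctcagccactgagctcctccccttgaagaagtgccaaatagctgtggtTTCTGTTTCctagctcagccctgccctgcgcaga
The match of Cd274 began 76 bases before the start and that of Pdcd1lg2 244 bases before it. Icosl had its match from 111 bases before the start, and Lgals9 had 1 from 54 bases before the start and another shortly after it. Cd274 and Pdcd1lg2 were lower in the library labelled Runx3 in several classes and Icosl and Lgals9 higher, so both motifs stood in the window of 1 gene that was lower and 1 that was higher. A match is only a string of letters and says nothing about binding.

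By summed tags, the migratory dendritic cells were the class richest in these ligands. The sum adds tags of different genes and is weighted to Cd274 and Cd86. Under the label Runx3_fl these made up 38.5% and 22.2% of it in the migratory class and 51.5% and 20.3% in the Csf3r gate. Together the 10 genes made up 4815 CPM (4723 to 4909) of the migratory class of Runx3_fl and 3142 CPM (3014 to 3274) of that of Runx3. The cDC2, macrophage and Csf3r classes lay between 2560 and 2929 CPM in the former and between 1675 and 1917 in the latter, and the cDC1 class at 1875 and 1691 CPM. T cells were at 392 and 452 CPM and NK cells at 441 and 507. The summed level was thus lower in the library labelled Runx3 in all 5 myeloid classes, although Lgals9 was higher in each of them. It was higher there in the Cd79a gate, at 869 and 1287 CPM.

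Of the 10 ligands, 7 were highest in the migratory class in each library, a class in which 17.5% of 14376 genes (Runx3_fl) and 19.9% of 14678 genes (Runx3) were highest. In both libraries these included Cd80, Cd40, Cd274, Pdcd1lg2, Tnfsf4 and Pvr. The seventh was Tnfsf9 in the library labelled Runx3_fl, where the migratory class exceeded the cDC2 class only 1.05-fold (0.931 to 1.17), and Icosl in that labelled Runx3, 1.34-fold (0.950 to 1.85) above the cDC2 class. Cd86 was highest in the cDC2 class in both, with an interval that overlapped that of the Cd79a gate under the label Runx3. Lgals9 was highest in the Csf3r gate in both, with intervals that overlapped those of macrophages.

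**Figure D1:**
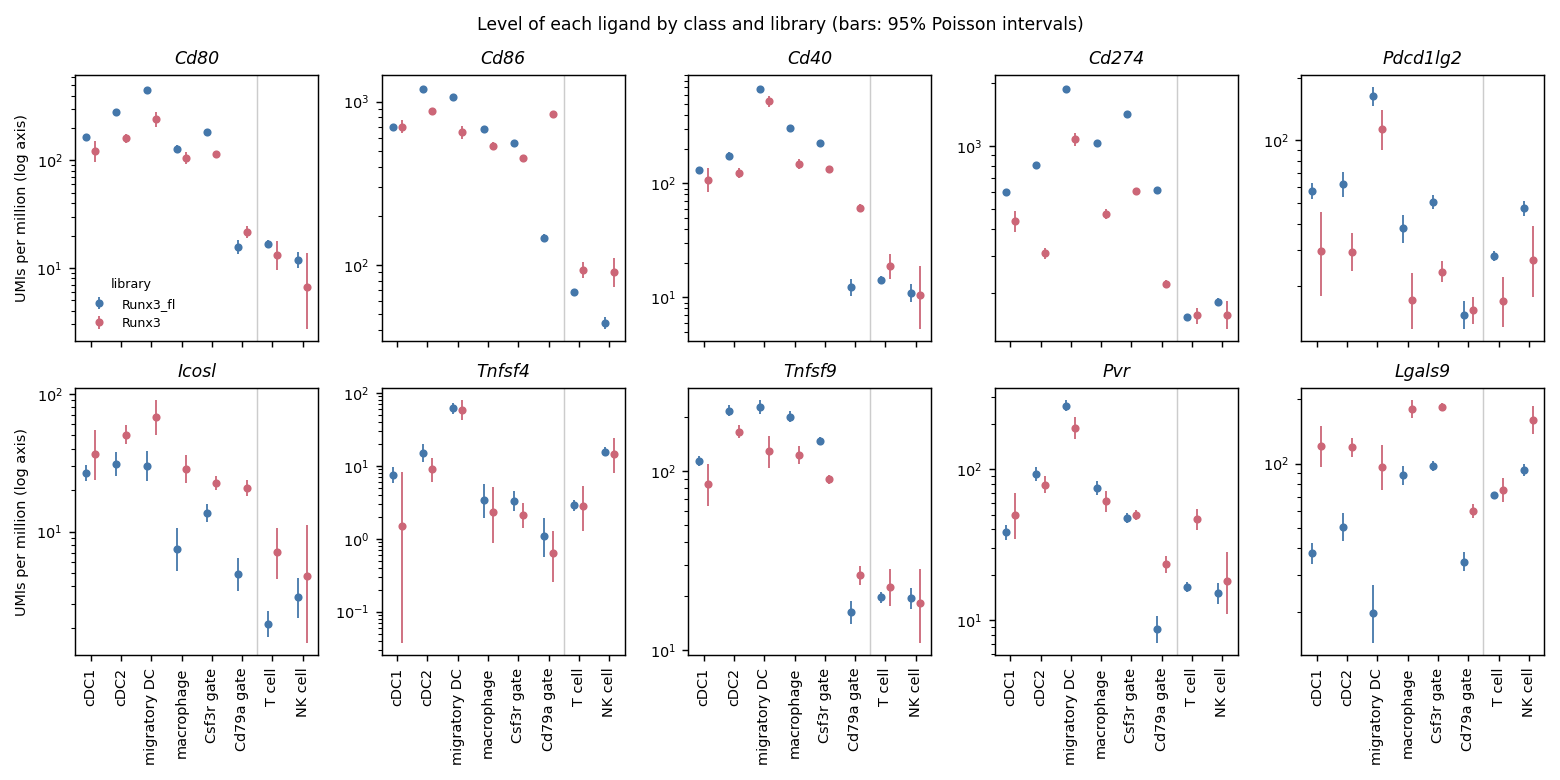
Level of each of the 10 ligands (CPM, log axis) in the 6 classes and, right of the grey line, in T and NK cells outside them, for the libraries labelled Runx3_fl (blue) and Runx3 (red); bars are 95% Poisson intervals. Tnfsf4 was at 61.0 and 58.0 CPM in migratory dendritic cells (57.0 and 24.4 without cells with a Col3a1 or Dcn UMI), and Lgals9 was lowest there in the library labelled Runx3_fl, at 19.9 CPM.

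The B7 ligands come first. Cd86 (chromosome 16, 36603869 to 36666081, GRCm38, minus strand) was the more abundant of the pair with Cd80. Its level was 697 and 703 CPM in the cDC1 class, 1196 and 873 in the cDC2 class and 1071 and 650 in the migratory class. It was 681 and 537 CPM in the macrophage class and 557 and 448 in the Csf3r gate. The cDC1 class was alike in both, with a log2 ratio of 0.01 (-0.13 to 0.15), and the other 4 myeloid classes were lower in the library labelled Runx3 by less than 2-fold, the migratory class most, with -0.72 (-0.87 to -0.58). The order turned over in the Cd79a gate, where Cd86 was at 147 CPM (140 to 154) when labelled Runx3_fl and at 838 CPM (822 to 856) when labelled Runx3, with a ratio of 2.51 (2.44 to 2.59). Among cells of that gate without a UMI of Mzb1, a plasma cell gene, it was at 394 and 1015 CPM, a ratio of 1.36 (1.26 to 1.47). T cells had 68.5 and 92.8 CPM and NK cells a ratio of 1.01 (0.69 to 1.35).

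Cd80 (chromosome 16, 38455561 to 38496335, plus strand), which binds CTLA-4 more tightly than CD86 does, was at 454 and 240 CPM in the migratory class, 279 and 160 in the cDC2 class and 165 and 122 in the cDC1 class. The Csf3r gate had 184 and 115 CPM and the macrophage class 128 and 106. All 5 myeloid classes were lower in the library labelled Runx3, with intervals that excluded 0 and log2 ratios from -0.92 in the migratory class to -0.28 in macrophages, and none was past 2-fold. Cd80 in the Cd79a gate was at 15.7 and 21.7 CPM, a ratio of 0.44 (0.18 to 0.76), and in T cells at 16.7 and 13.3 CPM.

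Icosl (chromosome 10, 78069302 to 78083913, plus strand) was sparse and went the opposite way from Cd80 and Cd86 in the myeloid classes. It was at 30.0 CPM (23.2 to 38.3) and 67.6 CPM (50.04 to 89.4) in the migratory class, from 65 and 49 UMIs, and at 7.53 CPM (5.18 to 10.6) and 28.5 CPM (22.4 to 35.9) in the macrophage class, from 33 and 73 UMIs. The log2 ratios were 1.15 (0.61 to 1.73) and 1.79 (1.31 to 2.56). The Cd79a gate had 4.91 and 20.7 CPM, a ratio of 1.87 (1.64 to 2.53), and without Mzb1-positive cells 5.88 and 24.6 CPM. Higher values under the label Runx3 were also seen in the cDC2 class and the Csf3r gate, at 31.1 and 50.6 CPM and at 13.6 and 22.4 CPM. In the cDC1 class, at 26.5 and 36.8 CPM, the interval of the ratio included 0. T cells outside the gates moved the same way, from 2.14 to 7.11 CPM, a ratio of 1.37 (1.00 to 2.41). So did cells in none of the gates that were neither T nor NK cells, at 14.4 and 31.3 CPM, a ratio of 1.07 (0.92 to 1.32).

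The PD-1 ligands Cd274 (chromosome 19, 29367455 to 29388095) and Pdcd1lg2 (29410919 to 29471161) are neighbours on the plus strand, 22823 bases apart. Under the label Runx3_fl it reached 1855 CPM (1798 to 1914) in the migratory class, 1411 (1391 to 1431) in the Csf3r gate, 1030 (1000 to 1061) in the macrophage class, 811 (782 to 842) in the cDC2 class, 614 (600 to 629) in the Cd79a gate and 600.0 (584 to 617) in the cDC1 class. In the library labelled Runx3 the same classes were at 1074, 607, 475, 307, 220.2 and 436 CPM. It was lower there in every class of the 6, and the intervals of the levels did not overlap in any. T cells, at 152 and 156 CPM, and NK cells, at 180.1 and 157 CPM, had ratios of 0.03 (-0.10 to 0.16) and -0.20 (-0.44 to 0.03). Cells in none of the gates that were neither T nor NK cells, whose make-up differed as given above, were at 733 and 459 CPM. Their ratio was -0.67 (-0.72 to -0.63), so the lower level was not confined to the 6 classes.

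The log2 ratio of Cd274 was -1.40 (-1.51 to -1.30) in the cDC2 class, -1.22 (-1.26 to -1.18) in the Csf3r gate, -1.12 (-1.21 to -1.03) in macrophages and -1.48 (-1.55 to -1.41) in the Cd79a gate. It was -0.79 (-0.90 to -0.68) in the migratory class and -0.46 (-0.63 to -0.29) in the cDC1 class. Of these, the value in the Cd79a gate rested on its cells with a Mzb1 UMI. Without cells with a Mzb1 UMI it was 0.18 (0.02 to 0.34), from 203 and 230 CPM, while the cells with one were at 708 and 211 CPM. Mzb1 encodes a chaperone of antibody-secreting cells. Cells with a UMI of it were 66.1% of the gate in the library labelled Runx3_fl and 33.0% in that labelled Runx3. They were unlike in the 2 libraries, with the B cell gene Ebf1 at 463 and 3768 CPM. Cells without one had Ebf1 at 1932 and 5992 CPM, so the split does not hold cell type equal.

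Pdcd1lg2 was far less abundant but followed Cd274 in the myeloid classes. It was at 163 and 113 CPM in the migratory class, 61.6 and 29.3 in the cDC2 class, 57.1 and 29.5 in the cDC1 class, 50.5 and 23.6 in the Csf3r gate and 37.9 and 17.2 in macrophages. It was lower in the library labelled Runx3 in all 5, past 2-fold in the cDC2, macrophage and Csf3r classes, with log2 ratios of -1.05 (-1.44 to -0.71), -1.09 (-1.65 to -0.65) and -1.07 (-1.30 to -0.90). These values lie close to the 2-fold limit, and adding 10 instead of 1 CPM before taking logs brought all 3 inside it. Levels in the Cd79a gate were 14.6 and 15.4 CPM, under the 27.9 and 17.0 CPM of T cells. Unlike Cd274, Pdcd1lg2 was also lower in T cells, with a ratio of -0.68 (-1.13 to -0.32). NK cells, at 47.4 and 26.8 CPM, had -0.80 (-1.42 to -0.27). By the T and NK cell values, the lower level was not confined to the myeloid classes. Cells in no gate that were neither T nor NK cells had -1.22 (-1.42 to -1.08). Their make-up differed between the libraries, as given above, and its part in this ratio was not tested.

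The tumour necrosis factor group was mixed. Cd40 (chromosome 2, 165055627 to 165072948, plus strand) was at 672 and 525 CPM in the migratory class, 2.19 times (2.03 to 2.36) and 3.57 times (3.09 to 4.13) the level of the next class, the macrophages, which were at 307 and 147 CPM. The macrophage ratio was past 2-fold, at -1.06 (-1.23 to -0.90). The Csf3r gate was at 226 and 134 CPM, the cDC2 class at 175 and 123 and the cDC1 class at 131 and 108. B cells carry CD40 as a rule, and the Cd79a gate had 12.3 CPM (10.3 to 14.5) under Runx3_fl and 60.6 CPM (56.1 to 65.4) under Runx3, with a ratio of 2.21 (2.03 to 2.58). Without cells with a Mzb1 UMI they were 37.2 and 73.5 CPM, a ratio of 0.96 (0.62 to 1.35) that was no longer past 2-fold.

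Tnfsf9 (chromosome 17, 57105325 to 57107757, plus strand) was at 226 and 128 CPM in the migratory class, 216 and 166 in the cDC2 class and 201 and 123 in macrophages. The Csf3r gate had 148 and 89.6 CPM and the cDC1 class 114 and 84.0. All 5 were lower in the library labelled Runx3, by log2 ratios from -0.81 to -0.38, and none was past 2-fold. The Cd79a gate was at 16.3 and 26.1 CPM, against 19.7 and 22.6 in T cells.

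Tnfsf4 (chromosome 1, 161395409 to 161418410, plus strand) was highest in migratory dendritic cells, at 61.0 CPM (51.0 to 72.3) and 58.0 CPM (41.8 to 78.4), which was 4.07 times (2.93 to 5.73) and 6.51 times (3.94 to 10.9) the level of the next class, the cDC2 class. Its ratio there was -0.07 (-0.61 to 0.44). Of the 42 UMIs in the migratory class labelled Runx3, however, 27 came from the 8 cells that also had a Col3a1 or Dcn UMI, genes of fibroblasts. Without such cells Tnfsf4 was at 57.0 and 24.4 CPM, a ratio of -1.19 (-2.11 to -0.45), so that the 6.51-fold excess over the cDC2 class, which was at 8.91 CPM, rested largely on those 8 cells. In the cDC1 class it was at 7.57 CPM (64 UMIs) and 1.47 CPM (1 UMI). That ratio of -1.79 was past 2-fold, with a counting interval from -7.69 to 0.17. Elsewhere it was at or below 15.0 CPM, and in the Cd79a gate it had too few UMIs, 12 and 7, to be counted. NK cells outside the gates carried 15.6 and 14.4 CPM.

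Pvr (chromosome 7, 19903578 to 19921160, minus strand) was at 263 and 189 CPM in the migratory class, 2.81 times (2.45 to 3.24) and 2.39 times (1.92 to 2.95) the next class. It was at 93.5 and 79.2 CPM in the cDC2 class, 75.3 and 61.4 in macrophages, 47.5 and 49.8 in the Csf3r gate and 38.3 and 50.1 in the cDC1 class. In none of these was the difference past 2-fold. The Cd79a gate had Pvr at 8.74 and 23.4 CPM, a log2 ratio of 1.33 (1.08 to 1.78), and without cells with a Mzb1 UMI at 25.5 and 28.6 CPM, a ratio of 0.16 (-0.29 to 0.65). T cells outside the gates were at 16.7 and 46.7 CPM, a ratio of 1.43 (1.22 to 1.74).

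Lgals9 (chromosome 11, 78962974 to 78984946, minus strand) differed from Cd274 in both the order of classes and the direction. Under the label Runx3_fl it was lowest in the migratory class, at 19.9 CPM (14.4 to 26.8), and highest in the Csf3r gate, at 97.6 CPM (92.3 to 103), with macrophages at 88.3, the cDC2 class at 50.4, the cDC1 class at 37.9 and the Cd79a gate at 34.6 CPM. In the library labelled Runx3 these classes were at 96.6, 184, 181, 120, 121 and 60.0 CPM. Every class of the 6 was higher there, and the intervals of the levels did not overlap in any. The log2 ratio was 2.23 (1.71 to 2.87) in the migratory class, 1.65 (1.31 to 2.03) in the cDC1 class, 1.23 (0.99 to 1.51) in the cDC2 class and 1.02 (0.83 to 1.23) in macrophages. In the Csf3r and Cd79a gates it was 0.91 and 0.78, and in T cells, at 70.8 and 75.5 CPM, 0.09 (-0.10 to 0.28). NK cells, at 93.2 and 161 CPM, were higher as well, with 0.78 (0.54 to 1.02). Cells in none of the gates that were neither T nor NK cells had 0.98 (0.90 to 1.09), so the higher level was not confined to the gates. The make-up of these last cells differed between the libraries, as given above, and its part was not tested. Removing the cells with a Col3a1 or Dcn UMI lowered the migratory value to 1.79 (1.19 to 2.50), and without cells with a Mzb1 UMI the Cd79a gate was at 64.7 and 65.7 CPM. Neutrophil markers were higher under the label Runx3 in the dendritic and macrophage classes, as given above, and their part in the Lgals9 values was not tested cell by cell. With 10% of each library's overall profile subtracted, Lgals9 was still past 2-fold in the cDC1, cDC2 and migratory classes.

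Counted over classes, 10 of the 59 pairs of a ligand and a class with at least 20 UMIs were at least 2-fold higher in the library labelled Runx3 and 9 at least 2-fold lower. In the cDC1 class 1 of 10 was higher (Lgals9) and 1 lower (Tnfsf4), where 8.42% and 7.97% of all genes tested were. In the cDC2 class 1 was higher (Lgals9) and 2 lower (Cd274 and Pdcd1lg2), against 9.65% and 2.46% of all genes. In the migratory class 2 were higher (Icosl and Lgals9) and 0 lower, against 11.5% and 5.08%. In macrophages 2 were higher (Icosl and Lgals9) and 3 lower (Cd40, Cd274 and Pdcd1lg2), against 11.5% and 4.39%. In the Csf3r gate 0 were higher and 2 lower (Cd274 and Pdcd1lg2), against 11.4% and 3.21%. Of 9 tested in the Cd79a gate, 4 were higher (Cd86, Cd40, Icosl and Pvr) and 1 lower (Cd274), against 15.9% and 13.3%. The counts of 1 or 2 genes on the higher side in the cDC1, cDC2, migratory and macrophage classes, and of 1 gene on the lower side in the cDC1 class and the Cd79a gate, were near what all genes gave.

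The medians of the 10 ligands placed them below the average gene in the myeloid classes. The median log2 ratio was -0.36 in the cDC1 class, -0.48 in the cDC2 class, -0.50 in the migratory class, -0.37 in macrophages and -0.57 in the Csf3r gate, where the medians over all genes tested were 0.05, 0.19, 0.13, 0.14 and 0.24. The Cd79a gate had 0.78 against 0.17. Setting the median of all genes to 0 left 9 pairs at least 2-fold higher and 10 lower.

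**Figure D2:**
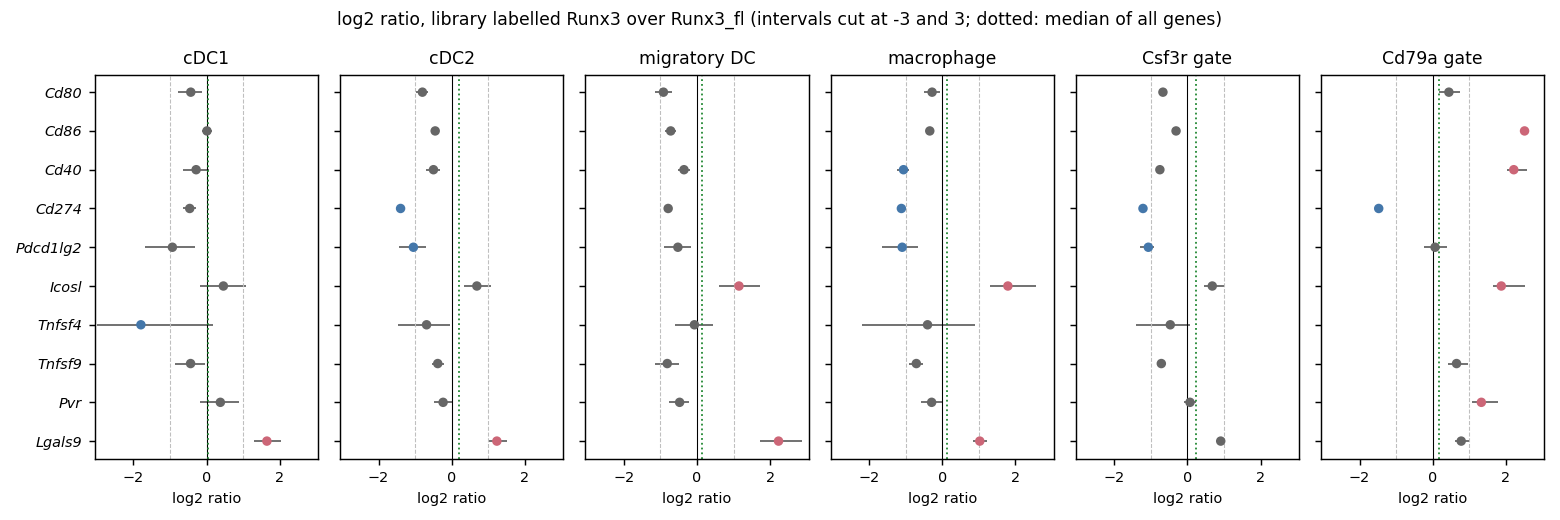
log2 ratio of each ligand (library labelled Runx3 over that labelled Runx3_fl, CPM plus 1) in the 6 classes, with 95% counting intervals. Red and blue points are at least 2-fold higher and lower (dashed lines at -1 and 1; intervals are drawn no further than -3 and 3), and the dotted line is the median of all genes in the class; Cd274 lies left of 0 and Lgals9 right of 0 in all 6 panels.

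The balance of an inhibitory against the activating ligands was described as UMIs of Cd274 per UMI of Cd80 or Cd86. These are tags of different genes, so the value is read only against the same value elsewhere. It was 0.696 (0.671 to 0.721) and 0.529 (0.458 to 0.610) in the cDC1 class, 0.550 (0.525 to 0.576) and 0.297 (0.277 to 0.320) in the cDC2 class and 1.27 (1.22 to 1.33) and 0.738 (0.685 to 0.796) in macrophages. In the Csf3r gate it was 1.90 (1.86 to 1.95) and 1.08 (1.04 to 1.11). The value was lower in the library labelled Runx3 in these 4 classes. T cells outside the gates were lower there too, at 1.79 (1.72 to 1.86) and 1.47 (1.28 to 1.69). So were NK cells, at 3.22 (2.94 to 3.52) and 1.62 (1.26 to 2.10). Cells in none of the gates that were neither T nor NK cells had 0.975 and 0.596, so a lower value was not confined to the gates. In the migratory class it was the same within counting error, at 1.22 (1.16 to 1.27) and 1.21 (1.09 to 1.34), since Cd80, Cd86 and Cd274 were lower there by like amounts. The Cd79a gate showed the widest gap, 3.78 (3.59 to 3.99) against 0.256 (0.245 to 0.268). Among its cells without a Mzb1 UMI the values were 0.481 (0.427 to 0.542) and 0.222 (0.209 to 0.236), and among those with one 6.87 (6.41 to 7.37) and 0.306 (0.287 to 0.327). Neither set was alike in make-up between the libraries, by the Ebf1 levels given above. Macrophages with a UMI of Nos2, the gene of inducible nitric oxide synthase, had 1.55 (1.42 to 1.69) and 1.49 (1.07 to 2.09), from 69 and 9 cells, and those without had 1.19 (1.13 to 1.25) and 0.708 (0.656 to 0.765).

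**Figure D3:**
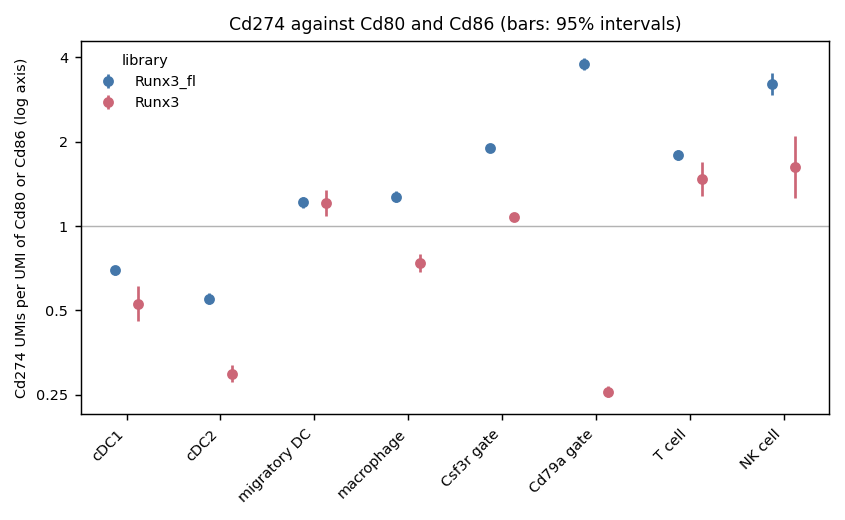
UMIs of Cd274 per UMI of Cd80 or Cd86 (log axis) by class for the libraries labelled Runx3_fl (blue) and Runx3 (red), with 95% intervals that cover counting error. The 2 libraries coincide in the migratory class, at 1.22 and 1.21, and lie furthest apart in the Cd79a gate, at 3.78 and 0.256.

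Shares of cells were compared at 2000 randomly kept UMIs per cell. Cells with fewer were not used, between 1 and 108 cells per class labelled Runx3_fl and between 3 and 267 labelled Runx3. At that depth Cd274 was detected in 86.8% (80.7 to 91.6) and 71.9% (59.2 to 82.4) of migratory dendritic cells, 83.6% (81.6 to 85.5) and 53.9% (51.2 to 56.7) of the Csf3r gate and 74.9% (69.6 to 79.7) and 50.4% (44.0 to 56.8) of macrophages. T cells, for comparison, had 21.2% and 22.5%, and whether these tags came from the T cells themselves was not tested. Unthinned, the macrophage values were 93.2% and 73.9%. The intervals of these shares take the cells of 1 library as trials, so whether they overlap is no test of a difference between groups. The intervals of the Csf3r gate and of macrophages did not overlap between the libraries, and those of the migratory class did. They did not overlap in the cDC2 class, at 66.0% (59.7 to 71.9) and 36.2% (30.0 to 42.8), and did in the cDC1 class, at 59.2% (54.2 to 64.1) and 46.7% (31.7 to 62.1). Cd86 was detected in 22.2% (18.8 to 25.9) and 64.1% (61.4 to 66.6) of the Cd79a gate, against 7.71% and 9.59% of T cells, and in 37.7% and 75.5% of the gate unthinned. For Cd80 the share was 50.3% (42.5 to 58.1) and 31.2% (20.2 to 44.1) in migratory cells (78.6% and 59.7% unthinned), where the intervals overlapped, and 2.83% and 1.64% in T cells. Its share in the Cd79a gate, 3.45% and 3.06%, was near that of T cells. Median depths before thinning were 12460 and 10219 UMIs in the migratory class, 13430 and 7053 in macrophages, 5520 and 6033.5 in the Csf3r gate, 19195 and 5835 in the Cd79a gate and 12818 and 7226 in T cells.

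Cells of the dendritic and macrophage classes often carried several ligands. At 2000 UMIs, 80.2% (73.4 to 86.0) and 59.4% (46.4 to 71.5) of migratory cells had a UMI of at least 3 of the 10. The share was 56.3% (49.8 to 62.6) and 37.5% (31.3 to 44.1) in the cDC2 class and 52.5% (46.7 to 58.2) and 36.0% (30.0 to 42.3) in macrophages, and 38.2% (35.6 to 40.8) and 32.5% (29.9 to 35.1) in the Csf3r gate. The intervals, again over cells of 1 library each, did not overlap in these 4 classes. For the cDC1 class, with 45 cells labelled Runx3, the values were 38.8% (34.0 to 43.8) and 31.1% (18.2 to 46.6), and the intervals overlapped. The Cd79a gate went the other way, with 3.82% (2.38 to 5.78) and 9.19% (7.70 to 10.9). Among T cells the share was 3.28% and 2.47%.

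**Figure D4:**
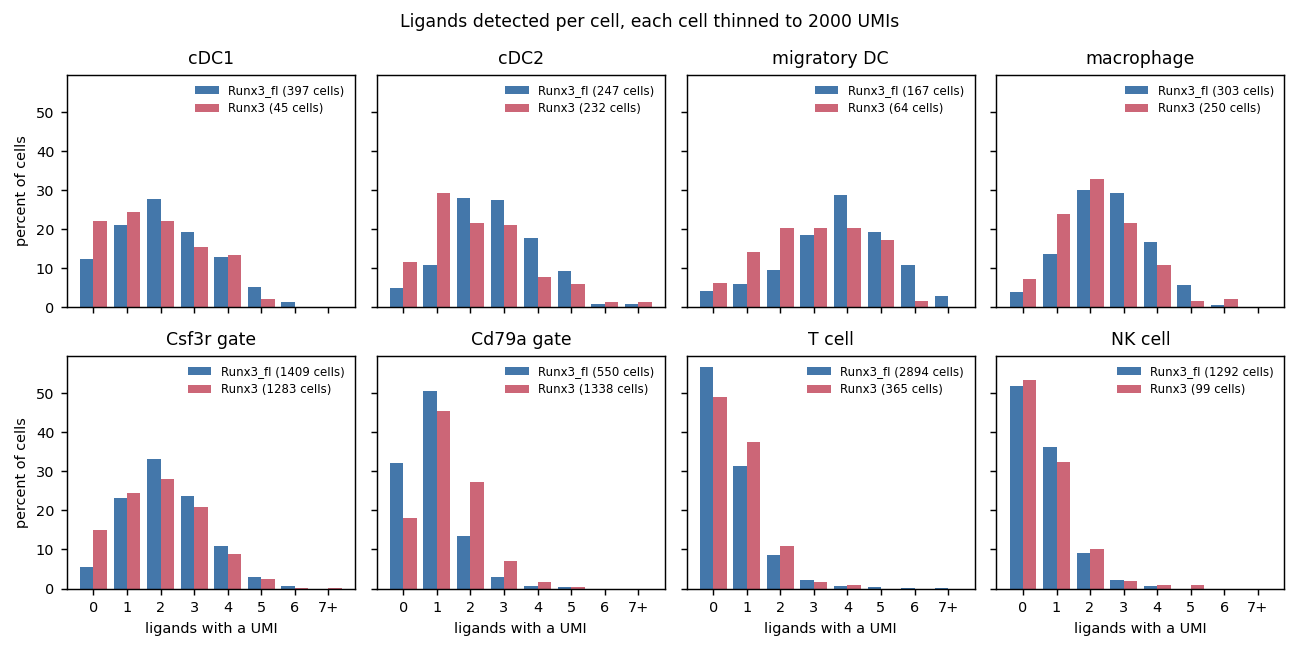
Percent of cells with a UMI of 0 to 7 or more of the 10 ligands, at 2000 UMIs per cell, by class for the libraries labelled Runx3_fl (blue) and Runx3 (red). Migratory dendritic cells peak at 4 ligands in the library labelled Runx3_fl, and 56.8% and 49.0% of T cells have none.

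Macrophages were split by UMIs of Nos2 and of Ly6c2. In the library labelled Runx3_fl, Ly6c2 was at 570 CPM in macrophages, 557 in T cells, 729 in the Cd79a gate and 811 in the Csf3r gate. A UMI of it therefore does not mark monocyte-like cells here. Nos2-positive cells were 69 of 309 (22.3%) and 9 of 299 (3.01%), in the order given above. Cd274 was at 1198 and 761 CPM in cells with a Nos2 UMI and at 976 and 460.1 CPM in cells without, and the ratio in the latter was -1.08 (-1.18 to -0.99). Icosl in cells without one was at 7.83 and 29.2 CPM, a ratio of 1.77 (1.23 to 2.61), and Lgals9 at 82.2 and 179 CPM, a ratio of 1.11 (0.90 to 1.34). Leaving out Nos2-positive cells thus kept each of these close to its value in the whole class. Cells with a Ly6c2 UMI were 216 and 244. They were deeper, at medians of 14318.5 and 7092.5 UMIs, than cells without, at 10787 and 5318. Cd274 was lower in the library labelled Runx3 both in them, at 1074 and 492 CPM, and in cells without, at 875 and 392 CPM. Cd40 was at 293 and 156 CPM in the former and at 355 and 106 CPM in the latter, with ratios of -0.91 (-1.10 to -0.73) and -1.74 (-2.22 to -1.30) whose intervals did not overlap. Pvr had ratios of -0.09 (-0.41 to 0.21) with Ly6c2 and -1.29 (-2.18 to -0.53) without, the latter from 87 and 16 UMIs.

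The Csf3r gate was split by a Csf1r UMI, which 747 and 788 of its cells had. Cd274 was at 1637 and 584 CPM in cells without one, a ratio of -1.48 (-1.55 to -1.42), and at 1309 and 618 CPM in cells with one, a ratio of -1.08 (-1.13 to -1.04). Cd86 was at 325 and 313 CPM without Csf1r and at 661 and 517 with it. For Lgals9 both sets of cells had the higher level under the label Runx3, at 99.1 and 153 CPM and at 96.9 and 199.7 CPM. In the cells without Csf1r, S100a8 differed more widely than any ligand, at 3235 and 44204 CPM, and its part in these ratios was not tested.

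**Figure D5:**
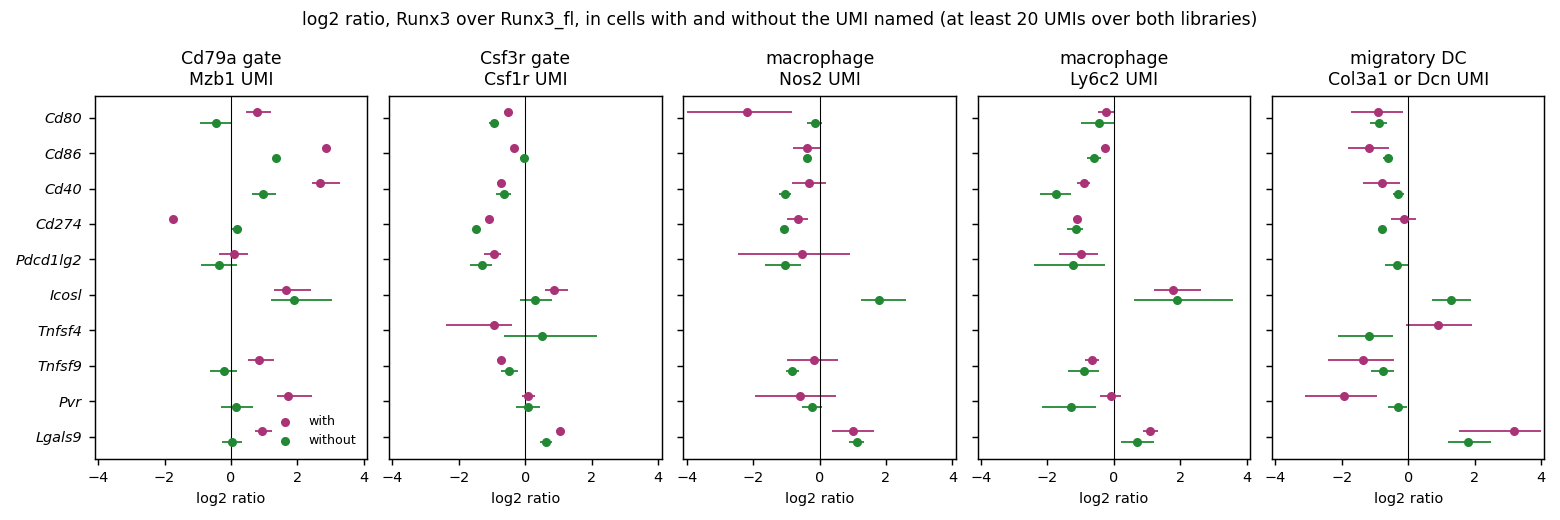
log2 ratio of each ligand (library labelled Runx3 over that labelled Runx3_fl) in cells with (purple) and without (green) the UMI named above each panel, with 95% counting intervals drawn no further than -4 and 4; pairs with under 20 UMIs are not drawn. Cd274 in the Cd79a gate moves from -1.74 with Mzb1 to 0.18 without, and in migratory dendritic cells Tnfsf4 moves from 0.89 with Col3a1 or Dcn to -1.19 without.

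Of 13 other ligands of the same pathways, between 6 and 9 had enough UMIs in a class. Past 2-fold were 0 to 3 higher and 0 or 1 lower per class, with medians from -0.01 to 0.16. Of all genes tested per class, 8.42% to 15.9% were higher and 2.46% to 13.3% lower, and counts of 1 gene are not told apart from these shares. Cd200, which restrains myeloid cells through its receptor, was at 293 and 265 CPM in the migratory class and at or below 9.16 CPM in the other gates. Cd70, the ligand of CD27, was found mainly in that class as well, at 36.9 and 13.8 CPM (log2 ratio -1.36), and Nectin2, which like PVR binds CD226, was at 18.5 and 51.1 CPM there (1.42). Vsir, which encodes the inhibitory ligand VISTA, was at 70.5 and 149 CPM in macrophages (1.07) and at 65.1 and 166 CPM in the Csf3r gate (1.34). Cd276, encoding B7-H3, was higher in both as well, from 4.79 to 13.7 CPM and from 1.61 to 6.69 CPM. Tnfsf15 was at 3.43 and 22.1 CPM in the cDC1 class and at 11.4 and 1.95 CPM in macrophages. Nectin2 and Cd200 in the Cd79a gate were higher, at 0.182 and 2.07 CPM and at 3.37 and 9.16 CPM, and Cd48 was lower, with a ratio of -1.63. The 0.182 CPM of Nectin2 lay under the 0.273 CPM that 3 UMIs correspond to in that gate labelled Runx3_fl. The part of Mzb1-positive cells in these 3 genes was not tested.

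The receptors of the ligands lay mostly on T cells: Cd28 was at 1274 and 494 CPM there, Icos at 1056 and 313 and Ctla4 at 955 and 396. Of the 6 to 11 receptors tested per gate, 0 were at least 2-fold higher in the library labelled Runx3 and between 1 and 10 were lower. Of all genes tested per class, 8.42% to 15.9% were higher and 2.46% to 13.3% lower. The medians of the receptors were -2.19 in the cDC1 class, -2.35 in the cDC2 class, 0.10 in the migratory class, -1.74 in macrophages, -1.51 in the Csf3r gate and -1.78 in the Cd79a gate. Icos in the cDC1 class, for example, was at 80.7 CPM and 1.47 CPM (1 UMI), and Ctla4 in the cDC2 class at 119 and 11.5 CPM. In the migratory class Havcr2, encoding TIM-3, was the 1 of 6 tested that was lower, at 35.1 and 6.90 CPM. There 5.08% of all genes were lower, and a count of 1 is not told apart from that share. T cell markers moved with these receptors, as given above. Leaving out cells with a Cd3e, Cd3d or Ncr1 UMI gave 9 ligand pairs higher and 9 lower, of which 9 and 8 were among those counted above.

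Genes induced by interferon-gamma, a known inducer of Cd274, were described from a list of 10. Of those with enough UMIs, 0 were higher in the 5 myeloid classes, and 2 were lower in the cDC1 class, 4 in the cDC2 class, 1 in the migratory class, 4 in macrophages and 4 in the Csf3r gate. Of all genes, 7.97%, 2.46%, 5.08%, 4.39% and 3.21% were lower in these classes, in the same order. The count of 1 in the migratory class is not told apart from its share. Cxcl9, which draws T cells through CXCR3, was lower in all 5, at 1577 and 273 CPM in macrophages (log2 ratio -2.52) and at 1216 and 587 CPM in the migratory class (-1.05). Cxcl10 was at 505 and 237 CPM in the cDC1 class. Gbp5, an interferon-inducible GTPase, was at 165 and 46.5 CPM in macrophages (-1.80), 249 and 75.1 in the Csf3r gate (-1.72) and 109 and 37.5 in the cDC2 class (-1.52). The medians of the list were 0.00 in the cDC1 class, -0.64 in the cDC2 class, -0.08 in the migratory class, -0.24 in macrophages and -0.39 in the Csf3r gate, against 0.05, 0.19, 0.13, 0.14 and 0.24 over all genes. For the Cd79a gate, Ciita, the master regulator of MHC class II, was higher, at 8.83 and 49.0 CPM, and Ido1 and Gbp2 were lower, at 1.82 and 0.269 CPM (20 and 3 UMIs) and at 131 and 58.5 CPM. Of all genes in that gate, 15.9% were higher and 13.3% lower. The part of its Mzb1-positive cells in these values was not tested.

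Of 8 genes of the NF-kB pathway, which takes part in dendritic cell maturation, 0 were past 2-fold in the cDC1, migratory and macrophage classes. In the cDC2 class Tnfaip3, a feedback inhibitor, was lower, at 894 and 406 CPM, and in the Csf3r gate the subunit Nfkb1 was, at 1811 and 901 CPM. Of all genes, 2.46% and 3.21% were lower in these 2 classes, and a count of 1 is not told apart from these shares. The Cd79a gate had 4 that were higher, with Rel at 468 and 1513 CPM and Relb at 61.9 and 154 CPM, where 15.9% of all genes were. The median was 1.04, against 0.17 over all genes. Cells with a Mzb1 UMI were 66.1% and 33.0% of that gate, and their part in these values was not tested.

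The genes most like each ligand over the 12 values of class and library were named for description. These values share libraries and depth, and 8387 genes were searched. Cd80 ran with Dennd5a (Pearson's r = 0.98) and Bhlhe40 (0.97), Cd86 with Bin1 (0.93) and Rel (0.90), and Cd40 with Fam49a (0.98) and Mllt6 (0.97). Cd274 ran with AW112010 (0.91) and the chemokine gene Ccl5 (0.91), and Pdcd1lg2 with Rbbp8 (0.97) and Mmd (0.95). The others were Map3k14 (0.94) and Taok3 (0.94) for Icosl, Uap1 (0.97) and Lrp8 (0.96) for Tnfsf4, Rnd3 (0.98) and Atxn7l1 (0.97) for Tnfsf9, Vwa5a (0.98) and Acvr2a (0.96) for Pvr, and Map11 (0.98) and P2rx7 (0.97) for Lgals9. Cd86 was the only ligand with a member of the NF-kB list among its 2, and none had another ligand.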

How the data were processed

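Single-cell RNA libraries of mouse colon lamina propria, 2 in all and 1 per group, were analysed from the deposited filtered matrices, in which the authors gave UMI counts per gene and cell, raw and not normalized. The file headers name Cell Ranger 7.1.0, and the submitters' processing notes name mm10 and Seurat 4. Whether intronic or antisense reads were counted is not given in the sources used here; Cd274, Pdcd1lg2, Pvr and Tnfsf9 overlap genes on the other strand, while no ligand overlaps a gene on its own strand. Coordinates are from GENCODE M21. The limit of 6000 genes per cell was the treatment of doublets. UMIs were summed per gate and library, and ratios are log2 of CPM plus 1. Levels carry exact Poisson intervals and ratios exact conditional binomial intervals, at 95% and for counting error only. Shares of cells carry 95% Clopper-Pearson intervals with the cells of 1 library as trials. None of these covers differences between animals. Genes needed 20 UMIs in a class over both libraries. Called means at least 2-fold apart, since no test was possible. All 10 ligands are named, as are up to 2 genes of each list past 2-fold with the largest differences in each direction; Cd200 in the migratory class, the receptors in T cells and some further examples were chosen after their values were seen. The ligands, gene lists and rules were chosen with earlier results of these data known. The ratio step was checked on simulated data. Depth was 146204416 and 75478164 UMIs, and 3 UMIs correspond to at most 1.39 CPM in a class labelled Runx3_fl and 4.42 CPM in one labelled Runx3. Python 3.11.15, numpy 2.4.6, scipy 1.17.1 and pandas 2.3.3 were used. Alternatives were 12 planned settings of gates, filters and scaling and 3 leave-out settings (cells with a UMI of Mzb1, of Csf1r, or of Col3a1 or Dcn) chosen after seeing the data. The result for 1 further motif is not reported here.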

Additional observations from a re-analysis of the deposited data

Results flagged for a closer look

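A total of 5 ligands had ratios of opposite direction in the Cd79a gate and in a myeloid class, each with a counting interval that excluded 0; the difference itself was not tested, since each group had 1 library. The log2 ratio of Cd40 was 2.21 in the Cd79a gate and -1.06 in macrophages, a difference of 3.27. That of Cd86 was 2.51 in the Cd79a gate and -0.72 in the migratory class, a difference of 3.23. Pvr differed by 1.81 between the Cd79a gate and the migratory class (1.33 and -0.48), Tnfsf9 by 1.46 (0.65 and -0.81) and Cd80 by 1.36 (0.44 and -0.92). In the cells of the Cd79a gate without a Mzb1 UMI, the values were 0.96 for Cd40, 1.36 for Cd86, 0.16 for Pvr, -0.22 for Tnfsf9 and -0.44 for Cd80, so that Cd80 and Tnfsf9 no longer differed in direction from the migratory class.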

How the results depend on the processing

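No paired analysis was possible because each group has 1 library and the result comes from no test. Over 15 alternatives, 3 of them chosen after seeing the data, between 7 and 14 pairs of ligand and class were at least 2-fold higher in the library labelled Runx3 (10 as reported) and between 5 and 10 lower (9 as reported). The lower count of 5 came with 10 CPM added before logs, which the construction of the ratio makes smaller for sparse genes. Counting cells of several gates in each class gave 14 pairs higher and 9 lower, of which 10 and 6 were among those reported. The count of ligands highest in the migratory class was 7 or 8 of 10 in the library labelled Runx3_fl and 7 in that labelled Runx3 under all 13 alternatives that change levels. Cd274 in the cDC2 class and the Csf3r gate, Lgals9 in the cDC1, cDC2 and migratory classes, Icosl in macrophages and the Cd79a gate, and Cd86 in the Cd79a gate stayed past 2-fold under all 15. Cd274 and Cd40 in macrophages came inside 2-fold only with gates of at least 2 UMIs, at -0.96 and -0.94. Lgals9 in macrophages did so in 3 alternatives (lowest value 0.84), Icosl in the migratory class in 2 (0.91), and Pdcd1lg2 in 3 or 4 alternatives per class. Cd274 in the Cd79a gate turned to 0.18 without cells with a Mzb1 UMI. Tnfsf4 in the cDC1 class turned to 1.95 with gates of at least 2 UMIs; the cause was not tested, and 1 UMI stood in the library labelled Runx3. With 51 cDC1 and 67 migratory cells labelled Runx3, 3 UMIs correspond to 4.42 and 4.14 CPM there, and sparser ligands could not be compared.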
